A study of Homo sapiens with 11 samples.

Results

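The genes of homologous recombination (HR) and double-strand break handling examined here were BRCA1, BARD1, PALB2, BRCA2, RAD51C, RAD51D, ATM, TP53BP1 and RIF1. They were chosen by name, and all 9 were found among the 23167 genes of the RNA-seq count files. MDA-MB-231 is an established human triple-negative breast cancer (TNBC) cell line, and the study asked how the histone variant macroH2A1.1 (mH2A1.1), a splice form of macroH2A1 (mH2A1), bears on transcription in these cells. RNA-seq of total RNA covered 2 WT libraries, from cells transfected without siRNA, and 2 mH2A1.1 KD libraries, from cells transfected with 11 nM siRNA against mH2A1.1 and collected after 3 days. ChIP-seq covered untreated WT cells, with 1 library for mH2A1.1 and 1 for total mH2A1, so the peaks have no replicate check and no KD counterpart. All libraries came from 1 cell line, the KD is transient, and nothing in the labels says that the 2 libraries of a group came from separate cultures, so p-values measure the spread between these libraries, which may be technical.

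Homologous recombination copies the intact sister chromatid to mend a double-strand break and works mainly in S and G2 phase. BRCA1 and its partner BARD1 promote trimming of the broken ends, PALB2 bridges BRCA1 to BRCA2, and BRCA2 acts on the resulting single-stranded DNA, with RAD51C and RAD51D in complexes beside it. ATM is the kinase that signals the break, while TP53BP1 (53BP1) and its effector RIF1 protect ends from trimming and favour non-homologous end joining. Inherited loss of BRCA1, BRCA2 or PALB2 function raises the risk of breast cancer.

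The total counts ranged from 7856892 to 9794674 in WT and from 2309549 to 5584962 in KD. KD replicate 2 had 30 counts on chromosome 21 and 0 on chromosomes 22 and X, so genes of these 3 chromosomes were left out of the fit. None of the 9 genes lies there. MACROH2A1 (ENSG00000113648), the gene of the targeted variant, had 385 and 394 CPM (counts scaled to library size after TMM normalisation, as counts per 1e6) in WT replicates 1 and 2, against 274 and 300 in KD replicates 1 and 2. Both KD libraries lay below both WT libraries, with a log2 fold change of -0.44 ± 0.17 (SE) and an adjusted p of 0.205 in edgeR's quasi-likelihood test. This gene-level value counts both splice forms and does not measure mH2A1.1 alone. VIM, CD44, EGFR and KRT18, expected in MDA-MB-231 cells, had from 344 to 4726 CPM, while ESR1 and PGR, markers of luminal cells, had 0 counts in all libraries. COL1A1, a fibroblast marker, had 9.68 and 8.68 CPM in WT and 18.3 and 33.1 CPM in KD. In DESeq2, COL1A1, KRT18 and VIM were higher in KD, with an adjusted p of 0.0167, 0.0344 and 0.0992. CD44 and EGFR had 0.932 and 0.529 in that test. After the correction for GC content and length described below, COL1A1 had an adjusted p of 0.0405 in edgeR.

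The sequences before 4 of the start sites are printed because these are the members with an mH2A1.1 peak at the annotated gene start. For BARD1, RAD51C and RIF1 that peak lay on the printed start site. For BRCA1 it lay far upstream, and a peak of total mH2A1 lay near the printed site. Each run holds the 250 bases before the start site in RefSeq's promoter table (GRCh38.p14), 5′ to 3′ on the gene's strand. They come from chr17:43125365-43125614 (minus strand) for BRCA1, chr2:214809684-214809933 (minus) for BARD1, chr17:58692352-58692601 (plus) for RAD51C and chr2:151409652-151409901 (plus) for RIF1. Capitals mark CCAAT boxes (CCAAT), CRE cores (TGACGT) and GC boxes (GGGCGG), each on either strand.
BRCA1: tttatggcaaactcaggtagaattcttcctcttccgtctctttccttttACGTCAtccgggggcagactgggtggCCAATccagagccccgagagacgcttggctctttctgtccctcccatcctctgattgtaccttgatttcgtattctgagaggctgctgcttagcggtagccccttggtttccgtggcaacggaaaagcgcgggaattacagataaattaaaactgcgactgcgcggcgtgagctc
BARD1: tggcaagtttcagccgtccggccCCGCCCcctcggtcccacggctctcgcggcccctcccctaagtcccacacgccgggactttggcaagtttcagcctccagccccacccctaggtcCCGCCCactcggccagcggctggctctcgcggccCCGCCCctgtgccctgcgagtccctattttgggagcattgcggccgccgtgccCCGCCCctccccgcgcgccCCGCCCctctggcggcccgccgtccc
RAD51C: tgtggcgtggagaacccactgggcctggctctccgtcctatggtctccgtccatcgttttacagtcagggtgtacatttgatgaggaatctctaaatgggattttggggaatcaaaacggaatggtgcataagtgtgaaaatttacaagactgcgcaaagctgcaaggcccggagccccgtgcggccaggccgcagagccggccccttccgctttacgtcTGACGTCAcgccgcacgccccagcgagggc
RIF1: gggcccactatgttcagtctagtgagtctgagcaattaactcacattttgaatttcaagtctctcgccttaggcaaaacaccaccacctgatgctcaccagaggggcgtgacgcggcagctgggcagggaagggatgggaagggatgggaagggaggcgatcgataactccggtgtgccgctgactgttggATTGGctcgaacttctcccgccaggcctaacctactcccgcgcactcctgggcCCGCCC
The GC content of the window was 52.4% for BRCA1, 75.2% for BARD1, 57.6% for RAD51C and 58.4% for RIF1. BARD1 held 5 GC boxes and neither of the other marked words. In RAD51C, 2 CRE cores overlap on opposite strands as 1 palindrome. CCAAT was present in 5 of the 9 members (BRCA1, PALB2, ATM, TP53BP1 and RIF1), against 32.0% of 35116 promoter windows of the same length. TGACGT was present in 2 of 9 (BRCA1 and RAD51C) against 7.1%, and GGGCGG in 3 of 9 (BARD1, TP53BP1 and RIF1) against 42.6%. TTTGAA, the cell cycle homology region word, was present in 2 of 9 (ATM and RIF1) against 13.3%. None of 4 E2F words (TTTCCCGC, TTTCGCGC, TTTGCCGC and TTTGGCGC) was present in the 9 windows, against 2.79% of all windows. A match is a description of these letters only.

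In WT cells, all 9 genes were expressed, and all passed the filter on low counts. Levels between genes were compared as CPM per kb of the canonical transcript. RIF1 was highest, at 25.6 and 23.0 CPM per kb in WT replicates 1 and 2, followed by ATM at 21.4 and 18.2. BRCA1 came next at 14.04 and 15.12, then BARD1 at 13.0 and 12.7 and BRCA2 at 13.3 and 11.7. BARD1 and BRCA2 did not differ beyond the spread of their replicates, whereas every other pair of neighbours in this order had ranges that did not overlap. PALB2 had 10.6 and 9.81 CPM per kb, TP53BP1 9.30 and 9.38, RAD51C 7.43 and 7.85, and RAD51D 2.14 and 1.89. The order depends on the length used. Per kb of all annotated exons, RIF1 stayed first at 19.6 ± 1.47 (SD, n = 2), but ATM moved from rank 2 to rank 6 at 6.52 ± 0.753 (SD, n = 2), and RAD51C and RAD51D exchanged the last places.

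The comparison of KD with WT asks how the levels of these genes differed after transfection of siRNA against mH2A1.1. The WT cells received no siRNA, so loss of mH2A1.1 cannot be told apart from other effects of transfecting siRNA. Of the 9 genes, 8 had a log2 fold change below 0, from -0.93 for BRCA2 to -0.12 for RAD51D, and TP53BP1 was at 0.03. The median was -0.57, against 0.01 over all 10963 genes tested, of which 5416 were below 0. Both KD libraries lay below both WT libraries for 7 of the 9 genes, where 32.4% of all tested genes did so, and for none did both KD libraries lie above both WT libraries, where 32.5% did. A call required both a fold change above 1.5 and an adjusted p below 0.1. With edgeR's quasi-likelihood test, no member was called lower or higher, as for all tested genes (0.0% in either direction). At an unadjusted p under 0.05, edgeR gave 5 members lower and 0 higher, and over all genes 1250 lower and 1290 higher. DESeq2 called 3 of the 9 lower (BRCA1, BRCA2 and RIF1), where 5.73% of the 7765 genes with an adjusted p were called lower, and 0 higher, where 5.52% were. Without WT replicate 1 or WT replicate 2, DESeq2 called 0.0% of all genes in either direction, so the loss of the 3 calls says nothing about the members. Their log2 fold changes in those fits were -0.93 and -0.82 for BRCA1, -0.87 and -1.05 for BRCA2, -0.73 and -0.88 for RIF1. Without KD replicate 2, the DESeq2 log2 fold changes were -0.591 for BRCA1 and -0.584 for BARD1, just on either side of the 1.5-fold limit. Without KD replicate 1 they were -1.24 and -0.606, in that order.

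**Figure D1:**
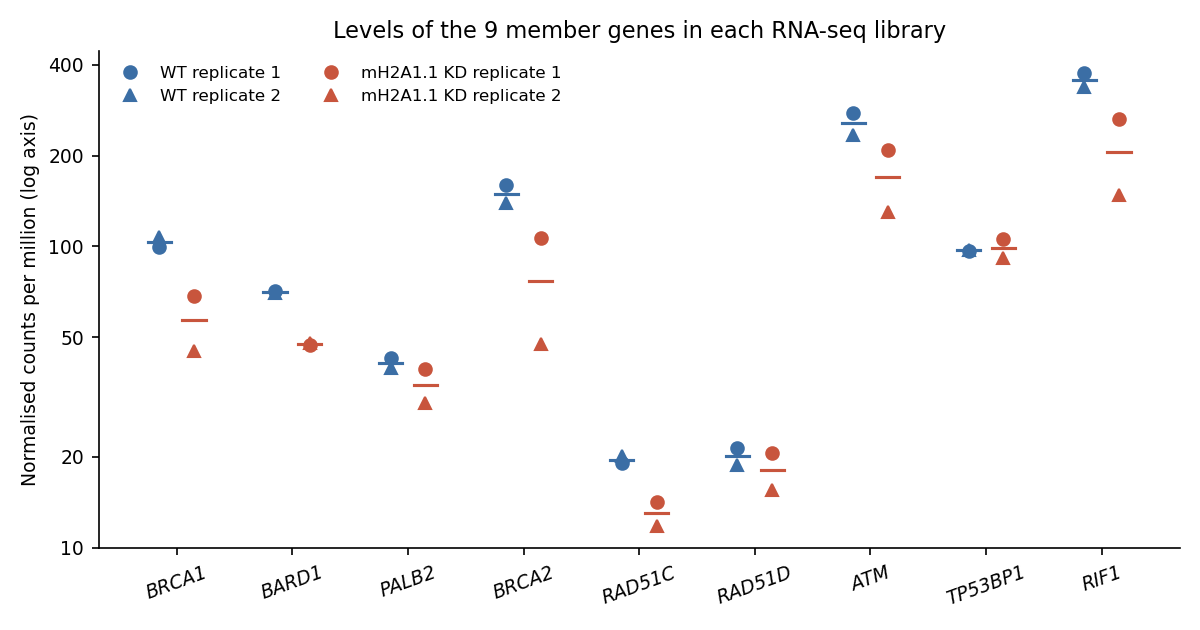
The plot shows CPM on a log axis for each member in the 4 libraries, with WT in blue, mH2A1.1 KD in red, circles for replicate 1, triangles for replicate 2 and bars for the group mean. KD points lie below both WT points for every gene but RAD51D and TP53BP1, and KD replicate 2 lies well below KD replicate 1 for BRCA1, BRCA2, ATM and RIF1.

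BRCA1 (ENSG00000012048, chr17:43044295-43170245, minus strand) encodes the ubiquitin ligase that directs breaks towards HR. It had 99.5 and 107 CPM in WT replicates 1 and 2 and 68.6 and 44.9 CPM in KD replicates 1 and 2, from 946, 815, 363 and 95 counts. Both KD libraries were clearly below WT, and they differed from each other by more than the WT libraries did. The log2 fold change was -0.84 ± 0.24 (SE), with an adjusted p of 0.194 in edgeR and 0.0524 in DESeq2. BRCA1P1, a partial copy of the 5′ part of BRCA1, can share reads with it, so the BRCA1 count is uncertain to that extent.

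BARD1 (ENSG00000138376, chr2:214725646-214809683, minus strand) encodes the protein that forms a dimer with BRCA1. Its levels were 71.2 and 69.8 CPM in WT and 47.0 and 47.7 CPM in KD. This was the member with the closest replicates, and the KD libraries were at 0.667 and 0.677 of the WT mean. The log2 fold change was -0.57 ± 0.18 (SE), just short of the 1.5-fold limit (0.585 on the log2 scale), with an adjusted p of 0.194 in edgeR and 0.149 in DESeq2.

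PALB2 (ENSG00000083093, chr16:23603160-23641321, minus strand) links BRCA1 to BRCA2. It was at 42.5 and 39.3 CPM in WT and 39.1 and 30.2 CPM in KD. KD replicate 1 nearly touched WT replicate 2, and the log2 fold change of -0.22 ± 0.21 (SE) was about the size of its error, with an adjusted p of 0.521 in edgeR. BRCA2 (ENSG00000139618, chr13:32315086-32400268, plus strand), which acts on resected single-stranded DNA, had 159 and 140 CPM in WT, 107 in KD replicate 1 and 47.3 in KD replicate 2. These values stood at 0.713 and 0.316 of the WT mean, the widest split between KD libraries among the 9 genes. The log2 fold change was -0.93 ± 0.35 (SE), with an adjusted p of 0.198 in edgeR and 0.0675 in DESeq2.

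RAD51C and RAD51D belong to complexes that act with BRCA2. RAD51C (ENSG00000108384, chr17:58692573-58735611, plus strand) had 19.0 and 20.1 CPM in WT and 14.2 and 11.8 CPM in KD, the last from 25 counts. The groups did not overlap, and the log2 fold change was -0.56 ± 0.22 (SE) with an adjusted p of 0.207 in edgeR, while DESeq2 gave this low-count gene no adjusted p. RAD51D (ENSG00000185379, chr17:35092221-35121522, minus strand) had 21.4 and 18.8 CPM in WT and 20.6 and 15.6 CPM in KD. Here the groups overlapped, with a log2 fold change of -0.12 ± 0.23 (SE) and an adjusted p of 0.762. RAD51D shares 905 bp of exon with a readthrough gene of the same strand that was not in the count files.

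ATM (ENSG00000149311, chr11:108223044-108369102, plus strand) had 276 and 235 CPM in WT and 209 and 130 CPM in KD. KD replicate 1 was closer to WT replicate 2 than to KD replicate 2. The log2 fold change was -0.58 ± 0.26 (SE), with an adjusted p of 0.224 in edgeR.

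The 2 end-protection genes differed from each other. RIF1 (ENSG00000080345, chr2:151409883-151508013, plus strand) had 375 and 337 CPM in WT and 264 and 148 CPM in KD, with no overlap and a log2 fold change of -0.78 ± 0.28 (SE), an adjusted p of 0.195 in edgeR and 0.076 in DESeq2. TP53BP1 (ENSG00000067369, chr15:43403061-43510728, minus strand), which recruits RIF1 to breaks, had 96.5 and 97.3 CPM in WT and 106 and 91.7 CPM in KD. The KD libraries lay on either side of WT, and the log2 fold change was 0.03 ± 0.18 (SE) with an adjusted p of 0.917. A test of the difference between the 2 genes was not run. TP53BP1 shares 3732 bp of exon with TUBGCP4 on the opposite strand, RIF1 shares 318 bp with NEB and ATM 124 bp with C11orf65, and reads there are uncertain because the strand setting of the counting is known only as the default.

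The values of several members moved with 1 library. Without KD replicate 2, the log2 fold change was -0.49 for BRCA2, -0.43 for RIF1 and -0.29 for ATM, and BRCA1, at -0.59 with an adjusted p of 8.6e-05, was the 1 member called lower in edgeR, where 5.31% of all genes were. Without KD replicate 1, edgeR called 5 members lower, where 21.4% of all genes were, and the values were -1.21 for BRCA1, -1.67 for BRCA2, -1.28 for RIF1 and -0.98 for ATM. KD replicate 2 alone was at 0.434 of the WT mean for BRCA1, 0.416 for RIF1 and 0.510 for ATM. BARD1 was the exception, at -0.58 without that library and -0.57 with it. This held only without the correction for GC content and length described below. With that correction, BARD1 was at -0.30 without KD replicate 2 and at 0.27 without KD replicate 1. KD replicate 2 also had the lowest depth, at 2309549 counts, and the part of depth in these values was not tested.

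Across all tested genes, the log2 fold change rose with the GC content of the exons. When genes were cut into 10 groups of equal size by exon GC, the median went from -0.53 in the lowest group (31.0% to 38.4% GC) to 0.51 in the highest (60.6% to 73.8%). In KD replicate 2 those medians were -0.90 and 0.83 against the WT mean, and in KD replicate 1 -0.29 and 0.19. BRCA2 (36.9% GC), BARD1 (37.7%) and RIF1 (37.8%) were in the lowest group, ATM (38.6%) in the next and RAD51C (40.6%) in the one after. BRCA1 (42.8%) and PALB2 (42.9%) shared the group with a median of -0.17, and their fold changes lay far apart. TP53BP1 (45.7%) and RAD51D (48.1%) were in groups with medians of -0.04 and 0.09. Among the 9 genes the lower fold changes stood with the lower GC contents, with BRCA1 apart.

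**Figure D2:**
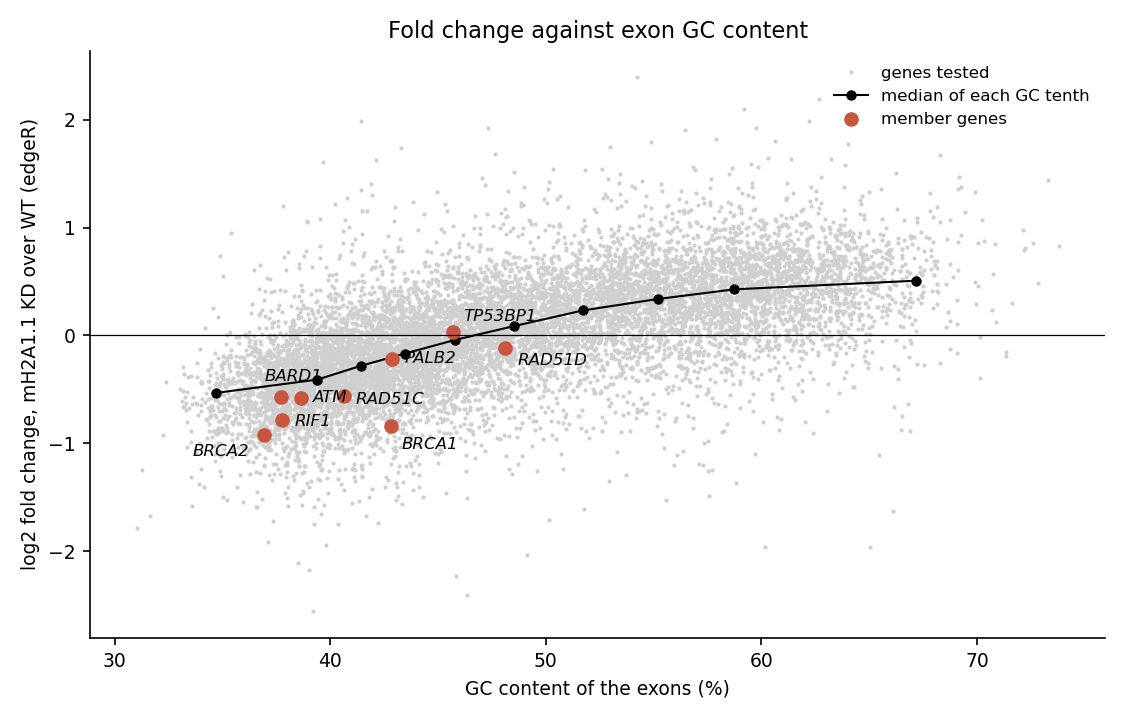
Each grey point is 1 of the tested genes, placed by the GC content of its exons (%) and its edgeR log2 fold change of mH2A1.1 KD over WT; the black line joins the medians of 10 GC groups and the members are red. BARD1 and ATM lie near the line, BRCA2 and RIF1 below it, and BRCA1 lies furthest below it among the members, at -0.84 where its group's median is -0.17.

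After smooth trends of GC content and length were removed from each library, edgeR called 1 of the 9 lower, where 3.33% of all genes were called lower, and 0 higher, where 2.21% were. That gene was BRCA1, with a log2 fold change of -0.64 ± 0.13 (SE) and an adjusted p of 0.0464 in edgeR. The same correction in DESeq2 gave BRCA1 -0.67 and an adjusted p of 0.022. For most of the others the edgeR values moved towards 0, to -0.41 (adjusted p = 0.166) for BRCA2, -0.34 (0.157) for RIF1 and -0.29 (0.324) for RAD51C. ATM came to -0.26 and BARD1 to -0.08 (0.805). PALB2 came to 0.01. TP53BP1 went slightly away from 0, to 0.08, and so did RAD51D, with the highest GC content of the 9, to -0.17. The median over the 9 was then -0.26, against 0.00 over all genes. In the corrected edgeR fit, BRCA1 was still called without WT replicate 1, at -0.74 with an adjusted p of 0.0438, and without KD replicate 1, at -0.87 with an adjusted p of 4.24e-07. It was not called without WT replicate 2, at -0.58 with an adjusted p of 0.147, or without KD replicate 2, at -0.51, short of the 1.5-fold limit, with an adjusted p of 1.51e-05. These fits called 1, 2, 0 and 0 members lower, in that order, where 1.39%, 8.2%, 2.08% and 4.0% of all genes were. The part of GC content in the uncorrected values of the other members was not tested further.

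**Figure D3:**
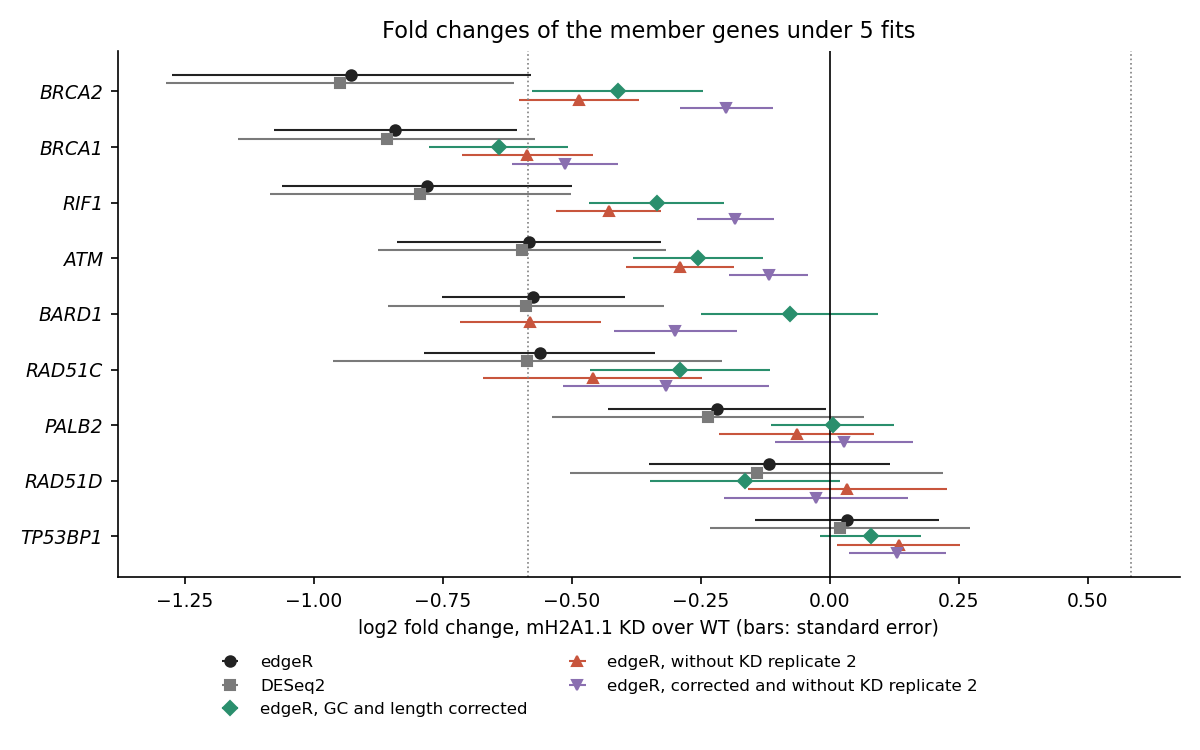
The plot gives the log2 fold change of each member (mH2A1.1 KD over WT, bars for the standard error) under 5 fits, with dotted lines at the 1.5-fold limits. BRCA1 stays between -0.86 and -0.51 in all 5, BRCA2, RIF1 and ATM move towards 0 in the 3 fits with the correction or without KD replicate 2, and PALB2, RAD51D and TP53BP1 lie around 0.

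The members were set beside 7 lists of other repair genes, of which 75 of 84 could be tested. Of these 75, 52 had a log2 fold change below 0, with a median of -0.19. No gene was called by edgeR in either direction. At an unadjusted p under 0.05 in edgeR, 19 were lower and 2 higher, where 1250 and 1290 of all 10963 genes were. Of the 61 with an adjusted p in DESeq2, it called 10 lower and 0 higher, where 5.73% and 5.52% of all genes were. The edgeR fit with the GC and length correction called 6 lower and 0 higher, where 3.33% and 2.21% of all genes were. Without KD replicate 2, DESeq2 called 6 of these genes lower and 0 higher, where 3.64% and 1.34% of all genes were. Without KD replicate 1 it called 24 lower and 7 higher, where 19.3% and 16.7% of all genes were. The 10 lower calls of DESeq2 fell in 4 of the 7 lists.

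End resection had the lowest median, -0.66, with 9 of 10 genes below 0. DESeq2 called 3 of its genes lower. MRE11, the nuclease that starts resection, had a log2 fold change of -0.84 ± 0.19 (SE), EXO1, a long-range nuclease, -0.78 ± 0.23 (SE), and DNA2, the nuclease-helicase, -0.996. RPA2, which coats the resected strand, was at -0.66, with an adjusted p of 0.194 in edgeR and 0.118 in DESeq2. It was called lower by DESeq2 on all chromosomes (adjusted p = 0.0227), by edgeR without the filter on low counts (0.0512) or with the replicate block (0.0503), and by edgeR with the GC and length correction, at -0.81 with an adjusted p of 0.0269. Under the same correction the list's median came to -0.37, and MRE11, at -0.37 and short of the 1.5-fold limit, and DNA2, at -0.48 with an adjusted p of 0.124 in edgeR, were not called, while EXO1 was still called, at -0.62 with an adjusted p of 0.0456 in edgeR.

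Damage signalling had a median of -0.28, with 8 of 10 below 0 and 3 called lower by DESeq2. USP28, a deubiquitinase that binds 53BP1, had 84.5 and 86.1 CPM in WT and 35.0 and 24.6 CPM in KD. Its log2 fold change of -1.49 ± 0.22 (SE) was the lowest of the 7 lists, with an adjusted p of 0.176 in edgeR and 0.000129 in DESeq2, and it was still called after the correction, at -1.27 with an adjusted p of 0.00605 in edgeR. CHEK1, the checkpoint kinase below ATR, was at -1.10 and CLSPN, its adaptor, at -0.67, and with the correction CHEK1 was still called, at -0.82, and CLSPN was not, at -0.53 and short of the 1.5-fold limit. RNF168, the ubiquitin ligase whose marks recruit 53BP1, was at 0.35 and was not called.

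Among the HR mediators, 14 of 19 were below 0, with a median of -0.25. DESeq2 called RAD51AP1, an HR accessory protein, and BRIP1, a helicase that binds BRCA1, lower, at edgeR log2 fold changes of -0.99 and -0.79. The corrected edgeR fit called neither, with values of -0.47 and -0.35, and called XRCC3 and RAD54L, at -0.64 and -0.59. SEM1, a small acidic protein bound to BRCA2, was at 0.79, with 53.2, 49.1, 60.1 and 120 CPM in WT replicates 1 and 2 and KD replicates 1 and 2, so that KD replicate 2 stood alone. With the correction SEM1 rose to 1.23, with an adjusted p of 0.101 in edgeR, and was not called. Without the filter on low counts, edgeR called SEM1 higher (adjusted p = 0.023). ZSWIM7 was at 0.63 and was high only in KD replicate 2.

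Junction processing had a median of 0.18 with 3 of 7 below 0, and DESeq2 called RMI1 and GEN1 lower, at -1.04 and -0.81 in edgeR. With the correction the median turned to -0.10, and RMI1 and GEN1 were at -0.46 and -0.48 and were not called. EME2 and MUS81, which form structure-specific nucleases, were at 0.44 and 0.35. The Fanconi anaemia list had 10 of 13 below 0, a median of -0.16, and FAAP100 at 0.43. Non-homologous end joining had 6 of 9 below 0 and a median of -0.18, and the 53BP1 effectors 2 of 7 and a median of 0.07, with DYNLL1 at 0.57 and MAD2L2 at 0.62. MAD2L2 stood alone in KD replicate 2 at 38.3 CPM, against 18.5, 17.1 and 19.3 in the others. No gene of the last 3 lists was called by DESeq2 or by edgeR with or without the correction. The signs of FAAP100, EME2 and MUS81 turned with the correction, to -0.06, -0.05 and -0.10.

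S phase genes, which mark cells that are copying DNA, had 10 of 14 below 0 and a median of -0.39, with a summed level of 2446 and 2631 CPM in WT and 2100 and 2522 CPM in KD. G2 and M phase genes had 11 of 14 below 0 and a median of -0.44, with a summed level of 7155 and 7245 CPM in WT and 5438 and 4341 CPM in KD. DESeq2 called 2 and 5 of these genes lower, where 5.73% of all genes were, and none higher, where 5.52% were. CCNA2, the cyclin of S and G2 phase, was at -1.03, CDK1 at -1.11, KIF11 at -0.81, CCNE2 at -0.95, RRM2 at -0.70 and MCM6 at -0.55. With the GC and length correction these came to -0.77, -0.46, -0.46, -0.55, -0.78 and -0.30, in that order. The list medians came to -0.28 for S phase and -0.37 for G2 and M phase. In that fit edgeR called 2 genes of each list lower, where 3.33% of all genes were. HR genes peak in the same phases, and the part of the cell cycle in the values of the 9 genes was not tested. In bulk RNA, fewer cells in a phase and less RNA per cell cannot be told apart.

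**Figure D4:**
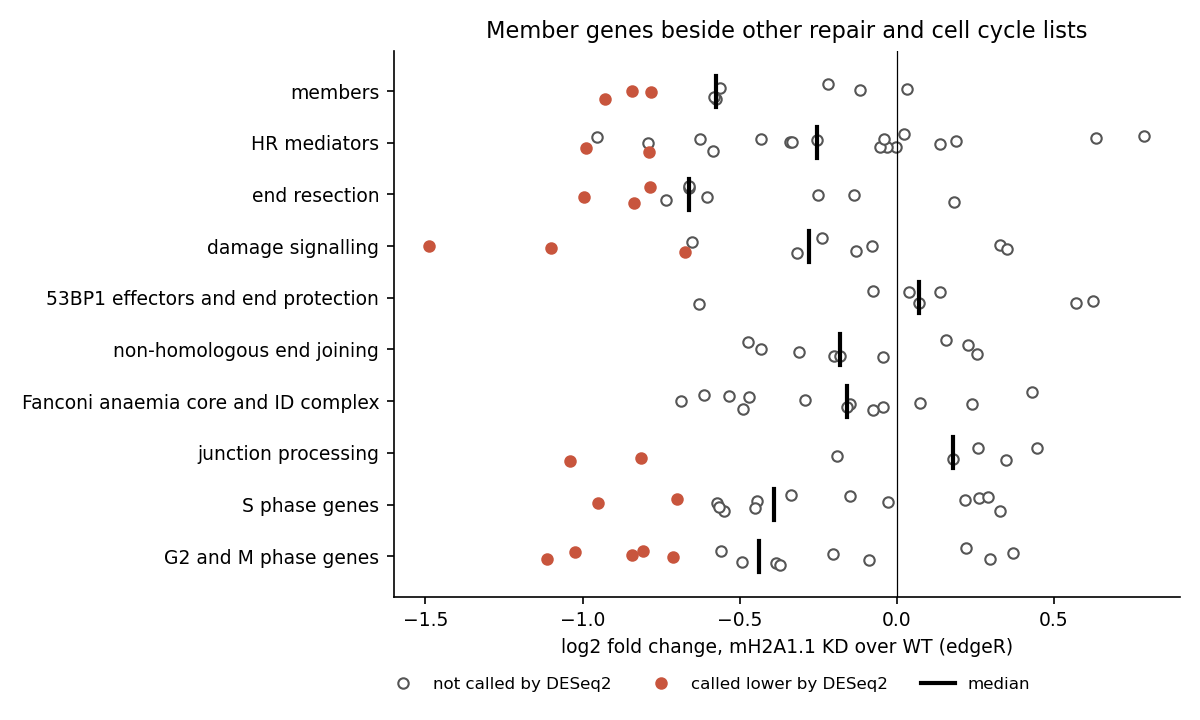
Each circle is a gene of the list on its row, placed by its edgeR log2 fold change of mH2A1.1 KD over WT; filled red circles were called lower by DESeq2 and black bars are list medians. The members' median of -0.57 lies between those of end resection (-0.66) and of G2 and M phase genes (-0.44), while the 53BP1 effectors and junction processing have medians above 0, of which the latter turned to -0.10 with the GC and length correction.

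Most of these genes have a partner transcribed in the opposite direction from a nearby start. An opposite-strand gene start lay within 1000 bp of the gene start for 8 of the 9 members, against 35.8% of 10943 genes, and RIF1 had none. NPAT, a histone gene activator that starts 406 bp from ATM, had 139, 129, 103 and 51.0 CPM in WT replicates 1 and 2 and KD replicates 1 and 2. Its log2 fold change of -0.77 ± 0.31 (SE) lay beside -0.58 for ATM, and its GC content of 38.2% was also low. NPAT and ATM came to -0.28 and -0.26 with the correction and to -0.38 and -0.29 without KD replicate 2. DCTN5, a dynactin subunit that starts 145 bp from PALB2, was at 0.32 ± 0.17 (SE), with 110 and 105 CPM in WT and 133 and 135 CPM in KD, whereas PALB2 was at -0.22. NBR1, an autophagy receptor that starts 236 bp from the upstream gene start of BRCA1, was at -0.16 ± 0.17 (SE). The opposite-strand gene at the canonical start site of BRCA1 is NBR2, 187 bp away, which was not in the count files. None of NPAT, DCTN5 and NBR1 was called by edgeR or DESeq2 on all 4 libraries. NPAT was called lower by edgeR without the filter on low counts (adjusted p = 0.0146) and with the replicate block (0.00603). Differences within the pairs were not tested.

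The partners of the other members had few reads. TEX14 beside RAD51C had from 1.37 to 3.31 CPM, SNHG31 beside BARD1 from 0.00 to 1.79 CPM and MAP1A beside TP53BP1 from 0.631 to 1.42 CPM. ZAR1L beside BRCA2 and FNDC8 beside RAD51D had 0 counts in every library, which allows up to 3 counts in each. Among overlapping genes, TUBGCP4 was at -0.20 ± 0.20 (SE), NEB had from 1.97 to 3.97 CPM and C11orf65 from 0.00 to 0.789 CPM, far below RIF1 and ATM.

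The ChIP-seq lists hold 30687 mH2A1.1 peaks and 24222 mH2A1 peaks, called in bins of 3000 bp. At the gene start with 500 bp on each side, 4 of the 9 members (BRCA1, BARD1, RAD51C and RIF1) had an mH2A1.1 peak, against 46.9% of 10943 tested genes. Within the whole gene, 7 of 9 had one, against 72.3%. Both counts were near the background. PALB2 and ATM had no mH2A1.1 peak in the gene, and their nearest peaks lay 34691 bp and 22067 bp from the canonical start site. An mH2A1.1 peak was taken as common if any base of it lay in an mH2A1 peak, which held for 38.6% of them. No member had a common peak at its gene start, against 26.2% of tested genes, or anywhere in its body, where 62.1% of tested genes had none either.

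At BARD1, 1 mH2A1.1 peak of 6000 bp (chr2:214806001-214812000) covered the start site printed above, from 2317 bp before it to 3682 bp after it. At RAD51C, 1 peak of 3000 bp (chr17:58692001-58695000) reached from 601 bp before the start site to 2398 bp after it, and an mH2A1 peak of 12000 bp ended on the base before that peak. At RIF1, a 12000 bp peak (chr2:151398001-151410000) lay almost wholly upstream and ended 98 bp after the start site, so 0.0693% of the gene body was covered. The nearest mH2A1 peak to BARD1 lay 467318 bp away, and the nearest to RIF1 24099 bp away.

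BRCA1 had the most peaks, with 4 of mH2A1.1 and 3 of mH2A1 in the gene and no overlap between them. The mH2A1.1 peak at its gene start (chr17:43167001-43173000) lay 41637 bp upstream of the canonical start site, near the start of NBR1. At the canonical start site printed above there was no mH2A1.1 peak, and the nearest was 11637 bp upstream. An mH2A1 peak (chr17:43122001-43125000) began 364 bp downstream of it. With canonical start sites in place of gene starts, 3 of 9 members had an mH2A1.1 peak, against 47.4% of 10943 tested genes. In the gene body of BRCA1, 19.2% was covered by mH2A1.1 peaks and 7.15% by mH2A1 peaks. This body begins near the gene start, which lies 44881 bp upstream of the canonical start site. The mH2A1.1 peaks of 15000 bp and 6000 bp lay wholly upstream of the canonical site. The other mH2A1.1 peaks and all mH2A1 peaks in the gene lay downstream of it and were 3000 bp wide each. Coverage from the canonical site onwards was not calculated.

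RAD51D had 2 mH2A1.1 peaks in the gene, TP53BP1 2 and BRCA2 1, all downstream of the start. The BRCA2 peak began 6493 bp after its canonical start site. Gene body coverage by mH2A1.1 ranged from 0 to 20.5%, with a median of 3.66% over the 9 members and 8.22% over 10931 genes. Of the 3 genes that DESeq2 called lower, BRCA1 and RIF1 had an mH2A1.1 peak at the gene start and BRCA2 did not. BARD1 and RAD51C had one and were not called. The set of called genes depended on the fit. On all chromosomes, DESeq2 called BRCA1 and BARD1 lower (adjusted p = 0.0537 and 0.00916), and not BRCA2 (0.17) or RIF1 (0.146). PALB2 and ATM, without a peak in the gene, had log2 fold changes of -0.22 and -0.58.

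**Figure D5:**
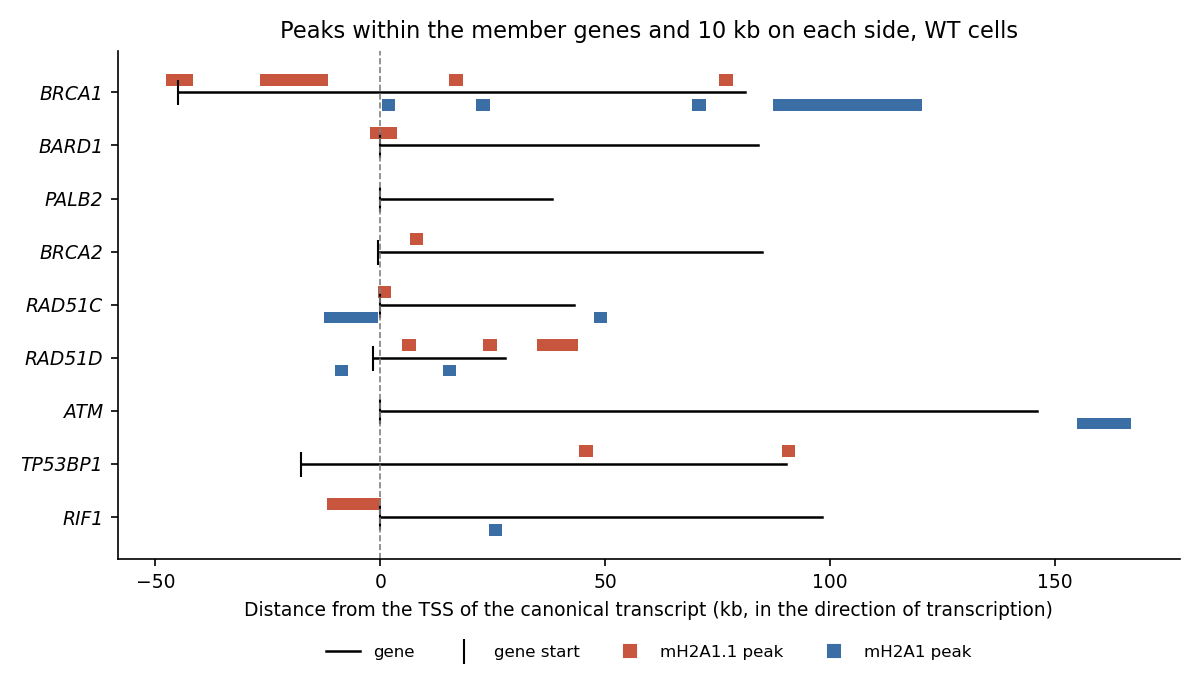
Each row is a member gene drawn from its start to its end in the direction of transcription, with distance from the canonical start site in kb on the x axis, mH2A1.1 peaks in red above the line and mH2A1 peaks in blue below it, from WT cells. Red blocks cross the start site of BARD1, RAD51C and RIF1, the BRCA1 block lies at its upstream gene start, and no red block overlaps a blue one.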

How the data were processed

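The RNA-seq count files (WT and KD, 2 libraries each) and the peak files of both antibodies were used. For RNA-seq, the authors deposited raw counts for each gene. The authors aligned stranded total RNA reads to GRCh38 with STAR 2.5.1, removed reads of low mapping quality and duplicates, and counted with htseq-count at default parameters, with no annotation named. Removing duplicates lowers counts of densely covered genes. The other deposited values are peak positions, called by the authors with normR against the input on single libraries, and the deposited score is 0 for every peak, so no stricter threshold could be applied. PCHiC samples and the input were not used here.

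Identifiers were matched to GENCODE release 44 (23061 of 23167). Genes of chromosomes 21, 22 and X were left out, since KD replicate 2 lacks their counts. The test was that of edgeR 4.0.16 (R 4.3.3; TMM factors, filterByExpr, quasi-likelihood test, 10963 genes), with p-values adjusted by the Benjamini-Hochberg method over all of them. The biological coefficient of variation was 0.166, and 0.361 with all chromosomes. DESeq2 1.42.0 was an alternative. The GC and length correction took a lowess trend (span 0.3) of each library over exon GC content and exon length as offsets. For edgeR, the standard error is the log2 fold change over the square root of F. The scripts were tested on simulated data. Canonical start sites are those tagged so by GENCODE. Gene starts were used for neighbours and peaks, and gene bodies began 50 bp after the gene start.

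The members, the lists and the tests were chosen with earlier results of these data known. Named genes are the 9 members, MACROH2A1, genes with an opposite-strand start within 1000 bp or overlapping exons, the 8 lower and 8 higher genes with the smallest p of the repair lists, and 3 genes of each cycle list. DNA2, BRIP1, GEN1, XRCC3 and RAD54L are outside this rule and were named after their values were seen.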

Additional observations from a re-analysis of the deposited data

How the results depend on the processing

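Member calls differed between settings, with BRCA1 the most frequent. The 9 members held 0 lower calls in edgeR with RLE factors, robust dispersion or all chromosomes. They held 3 in DESeq2 and 2 in DESeq2 on all chromosomes (BRCA1 and BARD1). There was 1 in each of the GC and length corrections, and there were 5 with no filter on low counts. The other repair genes held 10 lower calls in DESeq2 with or without the 3 left-out chromosomes, 6 in each correction, and 21 lower and 1 higher with no filter. All genes held 445 lower and 429 higher calls in DESeq2, 535 and 410 on all chromosomes, 365 and 242 in edgeR with the correction, 220 and 210 in DESeq2 with it, and 1115 and 1024 with no filter. With a replicate block, edgeR called 4 members lower, 21 repair genes lower and 1 higher, and 1137 genes lower and 1071 higher. The labels give only shared numbers. Over the 10963 genes tested, the deviations of replicate 1 from its group mean correlated at 0.295 between WT and KD. BRCA1 was called in 12 of 21 other settings, BRCA2 in 6, RIF1 in 5, ATM in 4, BARD1 in 3 and RAD51C in 1. The cause was not tested.

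Leaving out 1 library, in edgeR, corrected edgeR or DESeq2, gave from 0 to 5 members lower, from 0 to 29 repair genes lower and 0 to 9 higher, and from 0 to 2424 genes lower and 0 to 2320 higher. The highest counts came without KD replicate 1. A lone library left in a group is assumed to vary like the other group. Corrected and DESeq2 fits without a library, and canonical start sites, were added after the data were seen.

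Signs turned for PALB2, at 0.0057 with the correction in edgeR, for FAAP100 (-0.055 in edgeR and -0.024 in DESeq2 with it), EME2 (-0.050 and -0.011) and MUS81 (-0.098 and -0.067). Without 1 library the ranges were -0.61 to 0.27 for BARD1, -0.48 to 0.032 for PALB2, -0.47 to 0.035 for RAD51D, -0.12 to 0.13 for TP53BP1, -0.18 to 0.64 for FAAP100, -0.065 to 1.09 for MAD2L2, -0.12 to 0.79 for EME2, -0.068 to 1.23 for ZSWIM7 and -0.15 to 0.64 for MUS81.

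An mH2A1.1 peak at the start was found for 4 members with a window of 1000 bp, where 49.1% of tested genes had one. It was also 4 with the start base alone (43.9%) and at RefSeq starts (49.1% of 8962 genes), and 3 at canonical starts (47.4%). It was 0 with common peaks (26.2%) and 0 with stretches covered by both lists (13.8%). With 25 counts for RAD51C in KD replicate 2, small changes were not detectable at this depth.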
